A study of Mus musculus with 9 samples.

Results

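Transcripts of 10 epithelial antimicrobial protein genes were followed across 9 mouse colon libraries: Reg3b, Reg3g, Reg4, Lyz1, Ang4, Retnlb, Itln1, Slpi, Pglyrp1 and Lypd8. They were chosen by symbol from the 21959 genes of the deposited table, and all 10 had 1 row there. They were measured by sequencing of poly-A RNA from colon tissue of wild-type mice. The 3 groups of 3 libraries were mice with no treatment (Blank), mice given dextran sulfate sodium (DSS), a polymer that injures the colon lining (Model), and mice with both DSS and carbon dots of lotus node charcoal, which are nanometre-sized carbon particles (CDs). All 6 libraries of Model and CDs share the injuring agent. As for strain, sex, age, doses, schedule and time of sampling, none is stated in the sources used here.

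The colon lining is kept apart from gut bacteria by mucus and by proteins that colonocytes, goblet cells and crypt base secretory cells release into it. REG3 proteins are lectins that bind bacterial cell walls, lysozyme cuts those walls, angiogenin 4 is a ribonuclease with bactericidal activity, and LYPD8 coats flagella. Several of these genes are known to be induced through interleukin-22 and STAT3, through Toll-like receptors and MYD88, or, for Retnlb, through interleukin-13.

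The promoters of 4 members are shown first, since the Reg3b and Reg3g transcripts moved together and since Reg4 and Slpi kept their calls against Blank in all 20 alternatives. Sequences are RefSeq's on GRCm38.p6, from 250 bases before to 50 bases after the transcription start. Of the 10 members 9 had an entry, and Retnlb is named only. Capitals mark matches, on either strand, to TTCNNNGAA, the half-sites TTC and GAA that STAT proteins bind with 3 bases between, and to TATAAA, the TATA box letters. The same half-sites with 4 bases between were also searched, on both strands, and had no match in any of the 9.
Reg3b, chr6:78370635-78370934, plus strand: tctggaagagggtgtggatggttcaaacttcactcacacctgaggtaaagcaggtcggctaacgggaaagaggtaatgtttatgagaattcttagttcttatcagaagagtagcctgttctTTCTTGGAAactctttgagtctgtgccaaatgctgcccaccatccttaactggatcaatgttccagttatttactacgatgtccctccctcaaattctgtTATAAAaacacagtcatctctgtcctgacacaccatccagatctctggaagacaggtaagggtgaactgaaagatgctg
Reg3g, chr6:78468825-78469124, minus strand: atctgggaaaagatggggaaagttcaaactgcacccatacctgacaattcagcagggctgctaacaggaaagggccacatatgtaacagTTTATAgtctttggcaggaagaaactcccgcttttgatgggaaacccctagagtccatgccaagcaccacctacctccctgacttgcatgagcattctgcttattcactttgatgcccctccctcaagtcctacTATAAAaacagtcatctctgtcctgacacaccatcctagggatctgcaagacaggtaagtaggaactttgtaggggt
Reg4, chr3:98221906-98222205, plus strand: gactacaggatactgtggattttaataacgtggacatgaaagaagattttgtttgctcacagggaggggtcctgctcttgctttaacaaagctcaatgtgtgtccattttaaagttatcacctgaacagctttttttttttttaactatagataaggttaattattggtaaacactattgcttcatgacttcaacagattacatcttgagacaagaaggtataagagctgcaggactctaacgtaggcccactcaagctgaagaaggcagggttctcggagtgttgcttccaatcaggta
Slpi, chr2:164356458-164356757, minus strand: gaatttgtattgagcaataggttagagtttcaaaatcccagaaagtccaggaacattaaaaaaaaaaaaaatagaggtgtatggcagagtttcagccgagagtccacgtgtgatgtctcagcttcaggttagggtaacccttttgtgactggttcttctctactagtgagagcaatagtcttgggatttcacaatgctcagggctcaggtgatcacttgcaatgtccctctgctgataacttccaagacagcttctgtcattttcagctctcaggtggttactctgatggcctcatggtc
Reg3b and Reg3g held TATAAA at -29 and -27 from the start site, and Reg3g also held it on the other strand at -161. From -20 both went on with the same 29 bases, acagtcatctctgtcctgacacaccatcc, while no other pair of member promoters shared a run longer than 12 bases. TTCNNNGAA was found once in Reg3b, as TTCTTGGAA at -129, and once in Ang4, as TTCCCTGAA at -192. Reg4 and Slpi held none of the 3 patterns. Of all 32851 promoters of this length 8.3% held TTCNNNGAA, 6.95% the half-sites with 4 bases between and 13.6% TATAAA, so these matches are descriptions of the letters only.

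Libraries held 13868864 to 19940300 counted reads. Values are in CPM, read counts scaled to a common library size with the TMM method. Where no read was seen, the level allowed by 3 reads was 0.142 to 0.221 CPM by library, counting error only. Colonic markers were high in every library (Muc2 from 3915 to 13981 CPM). Of 8 small intestinal genes, Apoa4 had 0 reads in all 9 libraries. The 8, summed, were at 66.9 to 290 CPM in Blank, 19.9 to 44.6 CPM in Model and 11.5 to 32.3 CPM in CDs. The Paneth cell defensins Defa17, Defa22, Defa26 and Defa30 also had 0 reads in all 9, and Defa24 reached at most 0.142 CPM. Libraries that stood apart were Model 1 and Model 3, with pancreatic acinar transcripts (Cpa1 at 810 and 7050 CPM, beside 24.9 CPM in CDs 1 and 0 reads in the other 6), and Blank 2, with prostate transcripts (Tgm4 at 603 CPM, beside 56.4 CPM in Blank 3 and at most 2.50 CPM elsewhere).

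Model versus Blank addresses which of these genes differed in DSS-treated colon. Reg3b, Reg3g, Slpi and Pglyrp1 rose, Reg4 and Itln1 fell, and Ang4, Lyz1, Retnlb and Lypd8 did not pass the test. In all 6 of 10 members were called by edgeR (adjusted p under 0.05), beside 44.1% of the 14921 genes tested. At an unadjusted p under 0.05 there were 7, beside 53.0% of genes. The 4 called higher stand beside 24.5% of genes called higher and the 2 called lower beside 19.6%, so that the number of members called was not far from the share among genes at large. The median log2 fold change over the members was -0.12, beside -0.03 over all genes tested. The same 6 members were those whose groups did not overlap, beside 61.0% of all genes.

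**Figure D1:**
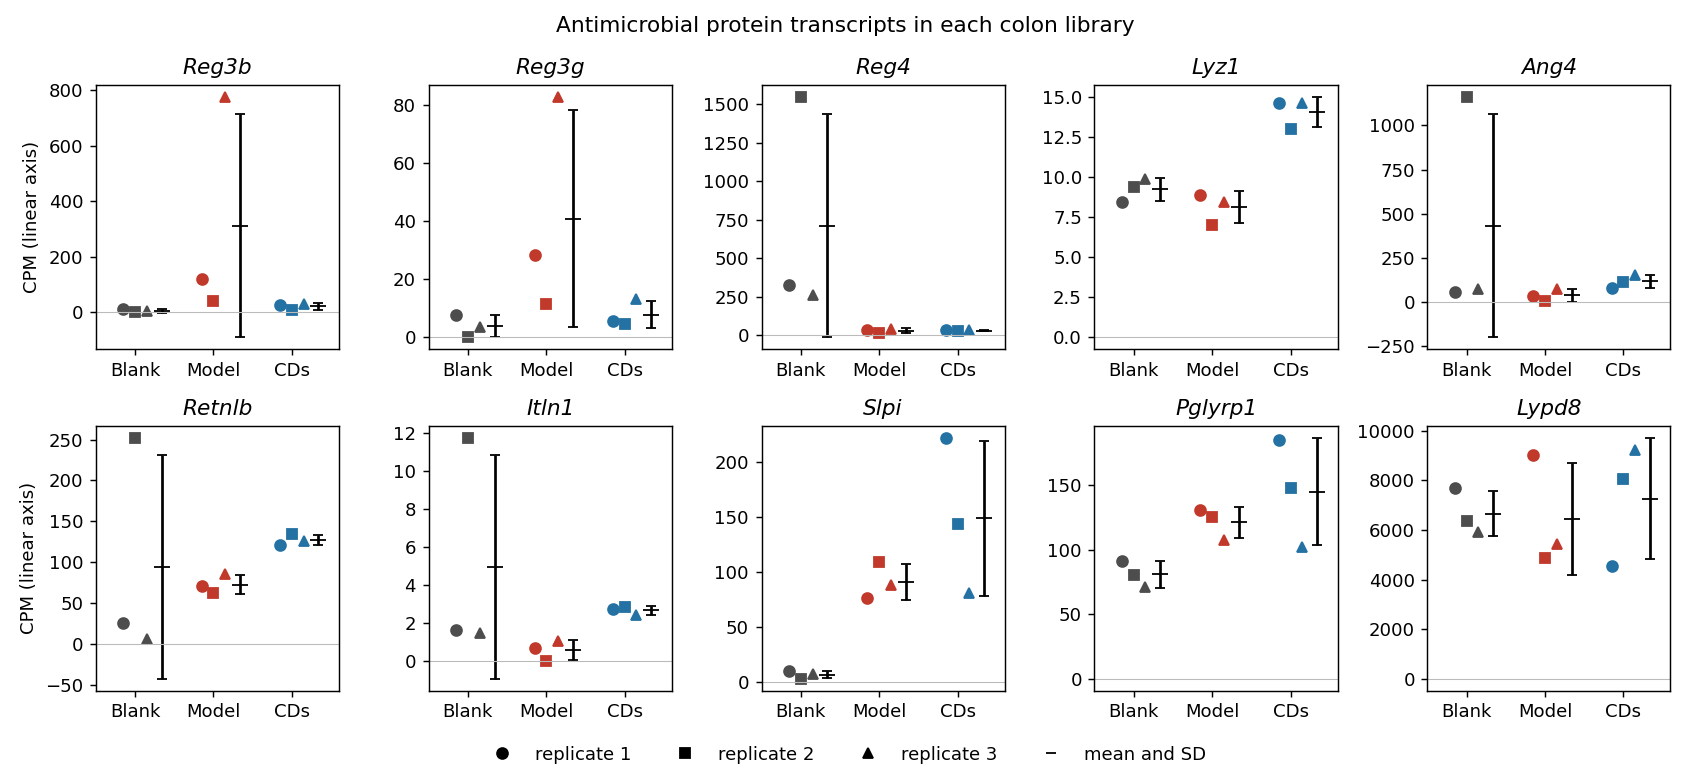
Each panel plots 1 gene, with the level in CPM on a linear axis and the 3 groups along the horizontal axis. Symbols are libraries by replicate number, and the bar is the group mean with its SD (n = 3). Model 3 stands high for Reg3b at 777 CPM, Blank 2 stands high for Reg4 at 1549 CPM and for Ang4 at 1162 CPM, and the 3 CDs libraries lie above the other 6 for Lyz1.

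The secreted Reg lectins went in opposite directions. Reg3b (ENSMUSG00000071356, chromosome 6, 78347640 to 78350449 as deposited, build not named there) encodes a lectin active against Gram-negative bacteria. It was at 14.1, 0 and 4.94 CPM in Blank 1, 2 and 3, and at 121, 41.9 and 777 CPM in Model 1, 2 and 3. Every Model library was above every Blank library, and Model 3 was far above the other Model libraries. On the log2 scale the difference was 5.61 ± 1.43 (SE; edgeR adjusted p = 0.0135), 48.8-fold. Reg3g (ENSMUSG00000030017, chromosome 6, 78443252 to 78445855) encodes the sister lectin that acts on Gram-positive bacteria. It was at 7.72, 0 and 3.47 CPM in Blank and at 28.2, 11.2 and 82.7 CPM in Model, with the same order of libraries as Reg3b in both groups. Its log2 fold change was 3.43 ± 1.07 (SE; edgeR adjusted p = 0.0297).

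Reg3b and Reg3g are also known from stressed pancreas, and their 2 highest libraries were those with acinar transcripts. The acinar list of 15 genes summed to 9567 CPM in Model 1 and 80095 CPM in Model 3, to 30.6 CPM in Model 2 and to 142 to 393 CPM in CDs. In Blank it summed to 166 to 232 CPM, mostly Cela1, which reached 209 CPM there. The relatives Reg1, Reg2, Reg3a and Reg3d had 0 reads in all 3 Blank libraries. In Model 1 Reg1 was at 259 CPM and Reg3a at 16.6 CPM, and in Model 3 they were at 1937 and 256 CPM. Model 2 had 1 read of Reg1, 0 of Reg2 and 0 of Reg3a, and 0 reads of Cpa1, but 882 reads of Reg3b and 236 of Reg3g. Its Reg3b and Reg3g levels, 41.9 and 11.2 CPM, were above those of the highest Blank library, 14.1 and 7.72 CPM. Without Model 1 and Model 3 the log2 fold change was 2.70 for Reg3b (edgeR adjusted p = 0.148) and 1.58 for Reg3g (edgeR adjusted p = 0.386), Model 2 being assumed to vary like the other groups. Reg3g also lost its call without Model 3 alone (2.39, edgeR adjusted p = 0.122), and both lost it without Blank 3 (edgeR adjusted p = 0.0523 for Reg3b and 0.0871 for Reg3g).

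**Figure D2:**
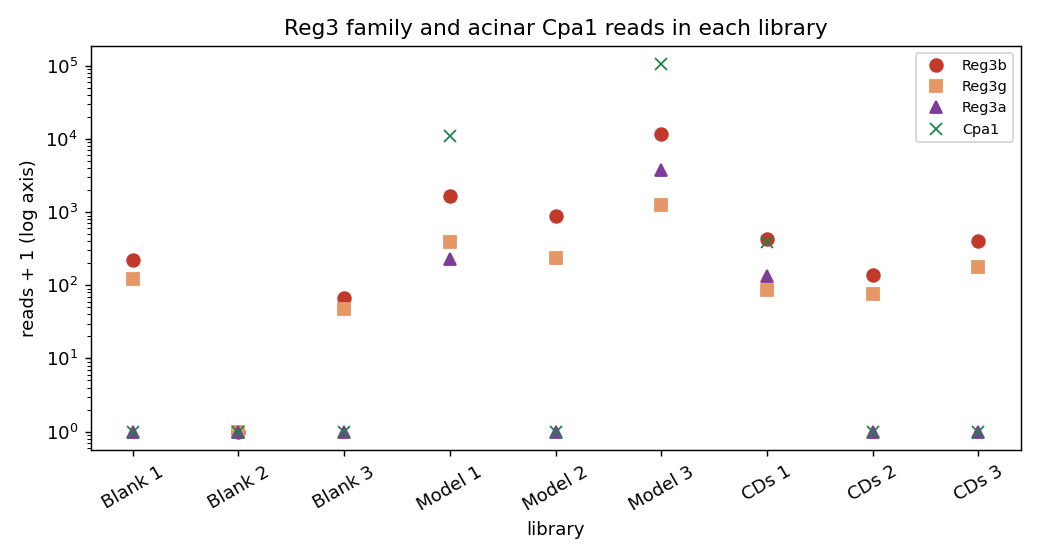
Reads plus 1 are plotted on a log axis for each of the 9 libraries, for Reg3b, Reg3g, Reg3a and the acinar enzyme gene Cpa1. Reg3a appears only where Cpa1 does, in Model 1, Model 3 and CDs 1, while Reg3b and Reg3g have reads in 8 libraries and none in Blank 2.

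Reads of Reg3b per read of Reg3g differed with these libraries. Model 3 had a ratio of 9.40, Model 1 of 4.301 and CDs 1 of 5.11, beside 3.74 in Model 2 and 1.43 to 2.32 in the other libraries with reads. For each 100 reads of Cpa1 there were 15.0 reads of Reg3b in Model 1, 11.02 in Model 3 and 112 in CDs 1, so that the ratio was close in the first 2 and higher in the last. How much of the Reg3 signal in these libraries was of the colon was not tested. No 50-base window of the Reg3b or Reg3g transcripts occurs in a transcript of another gene of the GENCODE M21 annotation.

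Reg4 (ENSMUSG00000027876, chromosome 3, 98129472 to 98144064), a lectin that marks the secretory cells of the colon crypt base, fell in Model. It was at 327, 1549 and 260 CPM in Blank and at 36.6, 12.2 and 41.0 CPM in Model. The lowest Blank library was above the highest Model library, and Blank 2 was far above the other 2. On the log2 scale the difference was -4.57 ± 0.77 (SE; edgeR adjusted p = 0.00213), and it lay between -5.86 and -3.29 in all 20 alternatives, each with an adjusted p under 0.05. Without Blank 2 it was -3.29. Of 12 goblet cell genes 3 fell and none rose, beside 19.6% of all genes called lower, with Atoh1, Gfi1 and Spdef, regulators of the secretory lineage, at -1.92 ± 0.34, -1.42 ± 0.28 and -1.33 ± 0.27 on the log2 scale, and of 8 pan-epithelial genes 3 fell, with Krt18 at -0.90 ± 0.21. In bulk tissue, fewer cells of a type and less RNA per cell cannot be told apart.

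Of the goblet cell and crypt products Ang4, Itln1 and Retnlb and the lysozyme gene Lyz1, only Itln1 passed the test in Model versus Blank. Itln1 (ENSMUSG00000038209, chromosome 1, 171345690 to 171362862), an intelectin that binds sugars of microbial surfaces, was low throughout. It was at 1.67, 11.7 and 1.48 CPM in Blank and at 0.726, 0.0475 and 1.07 CPM in Model, the value in Model 2 being 1 read. The groups did not overlap, and the log2 fold change was -3.08 ± 0.99 (SE; edgeR adjusted p = 0.0325). Its call was lost in 8 of 20 alternatives. Among these were the fits without Blank 2 (-1.41, edgeR adjusted p = 0.180), without any 1 of the 3 Model libraries and without CDs 2 (edgeR adjusted p from 0.05002 to 0.0861 for these 4). The others were the fit of only the 6 libraries compared (edgeR adjusted p = 0.0583), the replicate block (edgeR adjusted p = 0.104) and limma on log2(FPKM + 1) (limma adjusted p = 0.0650). Ang4 (ENSMUSG00000060615, chromosome 14, 52001335 to 52011047) was at 56.9, 1162 and 73.1 CPM in Blank and at 29.99, 3.09 and 72.4 CPM in Model. The groups overlapped, since Model 3 lay above Blank 1. The log2 fold change was -3.62 ± 1.34 (SE; edgeR adjusted p = 0.0540), which did not pass. DESeq2 gave Ang4 no adjusted p in this comparison, so that alternative is not in the range that follows. Over the alternatives its adjusted p ranged from 0.00440 to 0.477, and it passed in 4 of them, among these without Blank 1 and without Blank 3 (edgeR adjusted p = 0.0429 and 0.0475). Its log2 fold change was -0.88 without Blank 2 and -7.12 without Model 1 and Model 3. Of the 660 windows of 50 bases in the Ang4 transcript 31 (4.70%) also occur in Ang5 or Ang2, and of 1092 in Itln1 11 (1.01%) occur in Gm9765, so a small part of their reads could belong to either gene.

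Retnlb (ENSMUSG00000022650, chromosome 16, 48637219 to 48639255) encodes RELM-beta, a goblet cell protein that acts on Gram-negative bacteria. It was at 25.3, 252 and 5.39 CPM in Blank and at 70.3, 61.7 and 85.1 CPM in Model. Blank 2 was above all Model libraries and the other Blank libraries were below them. The log2 fold change was -0.38 ± 0.98 (SE; edgeR adjusted p = 0.772). Without Blank 2 the sign turned and the gene was called higher, at 2.23 (edgeR adjusted p = 0.0182). Lyz1 (ENSMUSG00000069515, chromosome 10, 117123702 to 117128773), the lysozyme of Paneth-type cells, was steady within groups at 8.49, 9.40 and 9.89 CPM in Blank and 8.93, 7.03 and 8.45 CPM in Model. The groups overlapped, and on the log2 scale the difference was -0.19 ± 0.14 (SE; edgeR adjusted p = 0.306).

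Blank 2 held the highest value of the 9 libraries for Reg4, Ang4, Retnlb and Itln1, and 0 reads of Reg3b and Reg3g. The pentraxin gene Mptx1, which fell in Model (log2 fold change -3.88 ± 1.10, edgeR adjusted p = 0.0207), was also highest there, at 10783 CPM beside 1434 and 837 CPM in Blank 1 and Blank 3. Of 9 prostate and seminal vesicle genes in the table, summed, Blank 2 held 1647 CPM, Blank 3 298 CPM and Blank 1 85.1 CPM. Blank 3, with Tgm4 at 56.4 CPM, was close to Blank 1 for Reg4, Ang4 and Itln1, at the values given above. For Retnlb it was lower, at 5.39 CPM beside 25.3 CPM in Blank 1. Hoxa13, Hoxb13, Hoxd13 and Insl5, genes of the distal hindgut looked up after these values were seen, summed to 511 CPM in Blank 2, beside 465 and 357 CPM in Blank 1 and Blank 3. The 12 goblet markers summed to 32280 CPM in Blank 2, beside 24460 CPM in Blank 1 and 32047 CPM in Blank 3. Their part in the member values of Blank 2 was not tested.

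Slpi and Pglyrp1, which neutrophils make as well as epithelium, rose in Model. Slpi (ENSMUSG00000017002, chromosome 2, 164195990 to 164231015) encodes an inhibitor of neutrophil proteases with antibacterial activity. It was at 9.32, 2.81 and 7.38 CPM in Blank and at 76.3, 109 and 87.9 CPM in Model, and the groups lay far apart. On the log2 scale the difference was 3.80 ± 0.48 (SE; edgeR adjusted p = 5.95e-04), 14.0-fold, and ranged from 3.45 to 4.17 over 20 alternatives, all of which called it. Pglyrp1 (ENSMUSG00000030413, chromosome 7, 18605256 to 18624384), a peptidoglycan recognition protein, was at 91.2, 80.1 and 71.0 CPM in Blank and at 131, 125 and 108 CPM in Model. The groups did not overlap, but the difference was small, 0.58 ± 0.20 on the log2 scale (SE; edgeR adjusted p = 0.0415). Its call was lost in 11 of 20 alternatives, among them without any 1 Blank or Model library or CDs 2 (edgeR adjusted p from 0.0537 to 0.128).

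Neutrophil transcripts were also higher in Model than in Blank. Of 10 tested neutrophil markers all 10 rose, beside 24.5% of all genes called higher, with Csf3r at 4.24 ± 0.34 and Cxcr2 at 9.60 ± 0.95 on the log2 scale. The list includes Lcn2, which is also counted below among the other epithelial defence genes. The 11 listed neutrophil markers summed to 78.4 to 96.4 CPM in Blank. In Model they summed to 480, 3143 and 735 CPM in replicates 1, 2 and 3. In Blank, Cxcr2 was at most 0.0738 CPM, Slpi at 2.81 to 9.32 CPM and Pglyrp1 at 71.0 to 91.2 CPM. In Model 1, 2 and 3 Slpi was at 76.3, 109 and 87.9 CPM and Pglyrp1 at 131, 125 and 108 CPM. Slpi thus had the same order of Model libraries as the marker sum. Pglyrp1 was highest in Model 1, where the marker sum was lowest. The part of neutrophils in either result was not tested.

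Lypd8 (ENSMUSG00000013643, chromosome 11, 58269869 to 58281554), made by surface colonocytes, was by far the most abundant member and did not pass the test. It was at 7687, 6365 and 5925 CPM in Blank and at 9032, 4853 and 5416 CPM in Model. Model 1 was above all Blank libraries and Model 2 and Model 3 were below them, and the log2 fold change was -0.05 ± 0.31 (SE, 95% interval -0.76 to 0.66; edgeR adjusted p = 0.910). The 12 colonocyte markers, summed, followed the same order within Model, at 18189, 9617 and 10512 CPM. Within Blank they did not, at 19073, 16724 and 19756 CPM, Blank 3 being highest for the markers and lowest for Lypd8. Of these 12 genes 1 fell, beside 19.6% of all genes, the transcription factor Cdx2 (-1.78 ± 0.39).

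Per length, the order of the members changed with DSS. On the deposited FPKM scale, mean levels in Blank were 5023 for Lypd8, 673 for Reg4, 586 for Ang4, 130 for Retnlb, 42.6 for Pglyrp1 and 1.71 to 7.10 for Lyz1, Reg3b, Slpi, Itln1 and Reg3g. In Model, Lypd8 was again first (5022), followed by Reg3b (269), Retnlb (104), Slpi (78.0), Pglyrp1 (66.5), Ang4 (48.6) and Reg4 (29.1). In CDs the order after Lypd8 (5722) was Retnlb (187), Ang4 (164), Slpi (131), Pglyrp1 (81.6), Reg4 (30.4) and Reg3b (19.8). The SD over 3 libraries was larger than the mean in Blank for Ang4, Reg4 and Retnlb (860, 683 and 189 FPKM) and, among the low members, for Itln1, Reg3b and Reg3g, and in Model for Reg3b (342 FPKM). Reg4 was above Ang4 in Blank 1 and Blank 3 and below it in Blank 2, and Retnlb was below both in every Blank library. The place of Retnlb above Pglyrp1 in Blank rests on Blank 2 (348 beside 42.0 FPKM). In Blank 1 and Blank 3 Retnlb was at 35.2 and 7.56 FPKM, below Pglyrp1 at 48.0 and 37.8 FPKM. Lypd8 stood above all others in each group. The place of Reg3b after Lypd8 in Model rests on Model 1 and Model 3, the libraries with acinar transcripts (105 and 662 FPKM). In Model 2 it was at 38.7 FPKM, below Slpi (97.3), Retnlb (93.6) and Pglyrp1 (71.9). All 10 together took 0.552% to 0.959% of reads in a library, of which Lypd8 made up 67.5% in Blank 2 and 81.1% to 94.7% in the others.

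CDs versus Model addresses which members differed when carbon dots were added to DSS. edgeR called 0 of the 10 members and 0 of 14921 genes (0%). At an unadjusted p under 0.05 there were 3 of the 10, Lyz1 higher and Reg3b and Reg3g lower in CDs, beside 788 genes (5.28%), and DESeq2 called 1 member, Lyz1, beside 50 genes (0.335%). The groups did not overlap for 5 of 10 members, beside 7.99% of all genes. Lyz1, Ang4, Retnlb and Itln1 were the 4 higher in CDs (3.22% of genes) and Reg3b the 1 lower (4.77%). The members' median log2 fold change was 0.48, beside 0.02 over all genes tested.

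Lyz1 was at 14.6, 13.03 and 14.6 CPM in CDs, above the 6 libraries of Model and Blank. The log2 fold change from Model was 0.80 ± 0.14 (SE, 95% interval 0.48 to 1.12; unadjusted p = 3.32e-04, edgeR adjusted p = 0.891), 1.74-fold. DESeq2 gave an adjusted p of 0.00342. Over the 19 alternatives the adjusted p ranged from 0.00342 to 0.9996 and the log2 fold change from 0.70 to 1.01. Lyz2, the near copy of myeloid cells, was at 904, 1007 and 1180 CPM in Model and 1526, 1811 and 1222 CPM in CDs (log2 fold change 0.56 ± 0.20; edgeR adjusted p = 0.925). Of the 1214 windows of 50 bases in the Lyz1 transcript, 195 (16.1%) also occur in Lyz2, so reads could be assigned to either gene. For each 100 reads of Lyz2 there were 2.05 to 3.25 reads of Lyz1 in Blank, 0.698 to 0.988 in Model and 0.720 to 1.20 in CDs. Between Blank and Model Lyz2 rose by 1.58 ± 0.20 on the log2 scale (edgeR adjusted p = 6.33e-04) while the Lyz1 value was -0.19.

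**Figure D3:**
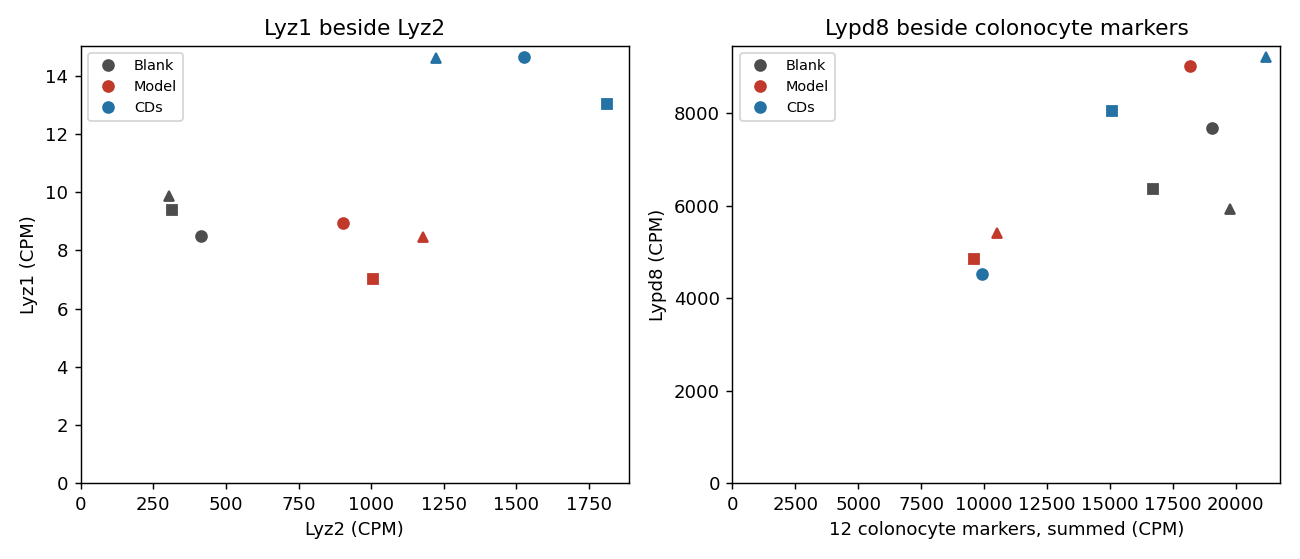
The left panel plots Lyz1 against Lyz2 in CPM, and the right panel plots Lypd8 against the summed level of 12 colonocyte markers in CPM. Points are the 9 libraries, coloured by group, with circles, squares and triangles for replicates 1, 2 and 3. The CDs libraries lie at 13.03 to 14.6 CPM of Lyz1, and Model 2, Model 3 and CDs 1 are low on both axes of the right panel.

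Ang4, Itln1 and Retnlb were each higher in all 3 CDs libraries than in all 3 Model libraries, without passing the test. Ang4 was at 78.7, 113 and 153 CPM in CDs, with a log2 fold change of 1.71 ± 1.25 (SE, 95% interval -1.11 to 4.54; edgeR adjusted p = 0.936). Its lowest CDs library, CDs 1, was close to the highest Model library, Model 3 at 72.4 CPM. Itln1 was at 2.75, 2.87 and 2.43 CPM in CDs, and the difference on the log2 scale was 2.20 (SE 0.997; edgeR adjusted p = 0.936). Retnlb was at 121, 134 and 126 CPM in CDs, a narrow range, with a log2 fold change of 0.81 ± 0.99 (SE, 95% interval -1.42 to 3.05; edgeR adjusted p = 0.941). The fit shares 1 estimate of spread over all 9 libraries. Among these, Blank 2 held the highest value of Ang4, Itln1 and Retnlb. With only the 6 libraries of CDs and Model in the fit none of the 10 members was called, and 0 of 14732 genes were. The log2 fold changes were then 1.71 ± 0.90 for Ang4, 2.19 ± 0.71 for Itln1 and 0.81 ± 0.14 for Retnlb (SE; edgeR adjusted p = 0.996 for each). In that fit 5 members had an unadjusted edgeR p under 0.05, beside 563 of the 14732 genes. Of 12 goblet markers 0 were called, with a median log2 fold change of 0.0047, and Atoh1 at -0.22 ± 0.33.

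Reg3b was at 27.8, 8.25 and 29.996 CPM in CDs, below every Model library, and Reg3g was at 5.44, 4.42 and 12.9 CPM, which overlapped Model 2. The log2 fold changes were -3.83 ± 1.30 for Reg3b and -2.43 ± 1.01 for Reg3g (SE; edgeR adjusted p = 0.904 and 0.936). The acinar transcripts were higher in Model 1 and Model 3 than in any CDs library. Without Model 1 alone the log2 fold changes were -4.22 for Reg3b and -2.63 for Reg3g, and without Model 3 alone -1.89 and -1.38. Without Model 1 and Model 3, so against Model 2 alone, they were -0.93 for Reg3b and -0.56 for Reg3g (edgeR adjusted p = 0.838 and 0.909), under the same assumption on Model 2 as above. The part of the acinar transcripts in them was not tested.

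Slpi was at 221, 143 and 81.0 CPM in CDs and Pglyrp1 at 185, 148 and 102 CPM. Both overlapped Model, with log2 fold changes of 0.71 ± 0.41 and 0.26 ± 0.20 (SE; edgeR adjusted p = 0.936 for both). CDs 1 was highest for both genes and also for the neutrophil markers, which summed to 1409, 620 and 638 CPM in CDs 1, 2 and 3. Reg4 was at 32.5, 26.1 and 32.1 CPM in CDs, with a log2 fold change of 0.02 (95% interval -1.51 to 1.54; edgeR adjusted p = 0.998). Lypd8 was at 4527, 8041 and 9222 CPM, with CDs 1 low as its colonocyte markers were (9932 CPM, beside 15071 and 21196 CPM), and a log2 fold change of 0.18 ± 0.31 (SE, 95% interval -0.54 to 0.89). Without Model 1, Model 3 and CDs 1, so against Model 2 alone, Lyz1 and Lypd8 were called higher, at 0.98 and 0.83 (edgeR adjusted p = 0.0369 and 0.0376), beside 1241 genes called in that fit. Model is then a single library, so these p-values assume that it varies like the other groups.

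**Figure D4:**
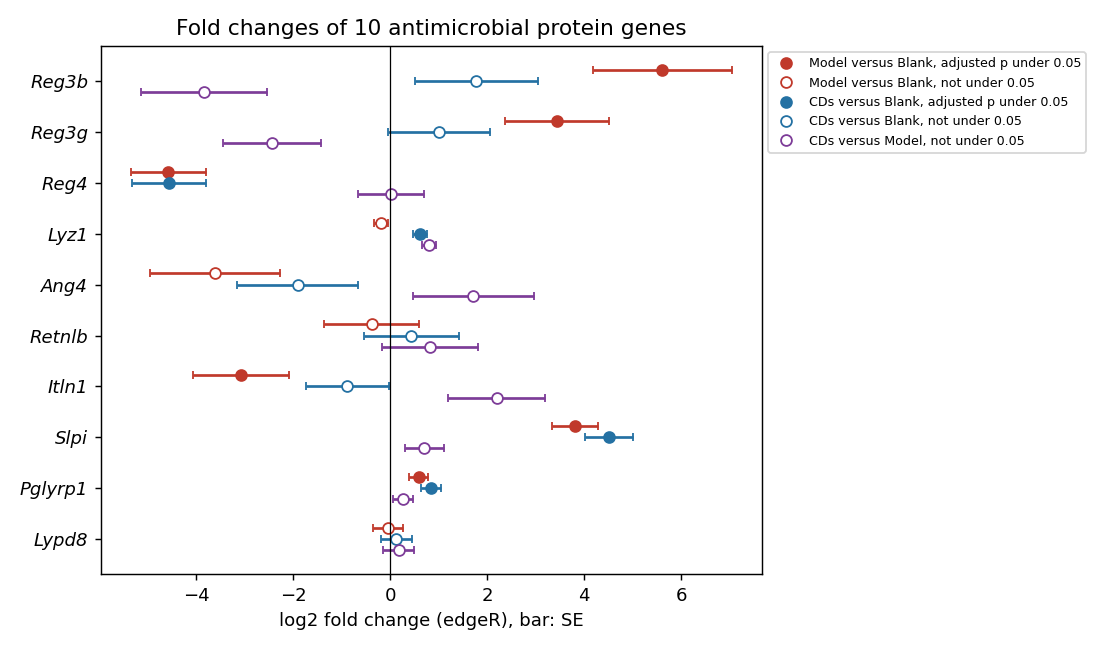
The log2 fold change of each gene is plotted with its SE for the 3 comparisons, filled where the edgeR adjusted p was under 0.05. Reg4, Slpi and Pglyrp1 are filled in both comparisons with Blank, Reg3b, Reg3g and Itln1 only in Model versus Blank, Lyz1 only in CDs versus Blank, and none is filled in CDs versus Model.

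CDs versus Blank shares its Blank libraries with Model versus Blank and its CDs libraries with CDs versus Model. edgeR called 4 of 10 members, the same 4 whose groups did not overlap, beside 35.6% and 54.1% of genes, with 3 higher (21.8%) and 1 lower (13.8%). Slpi had a difference on the log2 scale of 4.51 ± 0.49, Pglyrp1 of 0.84 ± 0.20 and Lyz1 of 0.61 ± 0.14, and Reg4 of -4.56 ± 0.77 (SE; edgeR adjusted p = 5.35e-04, 0.0122, 0.0111 and 0.00280). In Model versus Blank the same genes were at 3.80, 0.58, -0.19 and -4.57. Reg3b and Reg3g had values of 1.77 ± 1.27 and 1.01 ± 1.05 (SE; edgeR adjusted p = 0.297 and 0.474), and their CDs and Blank libraries overlapped. Retnlb was at 0.43 ± 0.98 (edgeR adjusted p = 0.752), and without Blank 2 it was called higher, at 3.04 (edgeR adjusted p = 0.00963). Ang4 and Itln1 were at -1.91 ± 1.25 and -0.88 ± 0.85 (edgeR adjusted p = 0.253 and 0.436), and without Blank 2 both signs turned, to 0.82 and 0.77 (edgeR adjusted p = 0.538 and 0.439). Lypd8 was at 0.13 ± 0.31 (edgeR adjusted p = 0.777).

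Genes known to induce or accompany the members changed as follows. Of 23 tested inducers and sensors, 10 rose and 4 fell in Model, beside 24.5% and 19.6% of all genes called higher and lower. The 4 with the lowest p-values had all risen. Socs3, a feedback inhibitor downstream of STAT3, was at 3.68 ± 0.35 on the log2 scale and Stat3 itself at 1.15 ± 0.12. The interleukin-4 and interleukin-13 receptor chain Il4ra was at 2.20 ± 0.25 and the Toll-like receptor adaptor Myd88 at 0.97 ± 0.12. The 4 inducers or sensors that fell are not named here. Il22 had 0 reads in Blank 1 and Blank 2 and was at 0.590 CPM in Blank 3, at 2.03, 1.76 and 2.48 CPM in Model (edgeR adjusted p = 0.0386) and at 18.0, 2.39 and 5.22 CPM in CDs. In CDs versus Model its log2 fold change was 2.03 ± 0.81 (edgeR adjusted p = 0.936). Reg3b was at 27.8, 8.25 and 29.996 CPM in CDs 1, 2 and 3, and Reg3g at 5.44, 4.42 and 12.9 CPM. CDs 1 also held acinar transcripts, and the part of Il22 in these values was not tested. Of 19 other epithelial defence genes 5 rose and 4 fell in Model, shares close to the 24.5% and 19.6% of all genes called higher and lower, with the acute phase gene Saa3 at 7.43 ± 0.93, the siderophore-binding Lcn2 at 7.12 ± 1.12 and Wfdc18, of the same protein family as Slpi, at 2.17 ± 0.37. The 4 that fell were Mptx1, given above, Wfdc2, also of that family, at -1.79 ± 0.52, the chemokine Ccl28 at -1.69 ± 0.48 and Pigr, the receptor that carries IgA across the epithelium, at -1.44 ± 0.43. Of 9 phagocyte antimicrobial genes 8 rose, beside 24.5% of all genes called higher. Among them were S100a9 at 9.16 ± 1.26, the phagocyte oxidase gene Cybb at 1.85 ± 0.24 and Chil3 at 8.17 ± 1.22. The median log2 fold changes of these lists were 0.43, 0.41 and 4.51, beside -0.03 over all genes tested, and in CDs versus Model 0 members of any were called.

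Across the 9 libraries 2 pairs of members were close in pattern. Reg3b and Reg3g had a Pearson correlation of 0.99 on log2 CPM, and each was most like the other among the tested genes with a gene symbol. Ang4 and Itln1 had 0.98, and again each was first for the other. Next for Reg3b and Reg3g was Rasgrf1 (0.95 and 0.94), and for Itln1 Nat8f2 (0.95). Both were low, Rasgrf1 at 0 to 1.88 CPM and Nat8f2 at 0.095 to 1.51 CPM. The genes most like Reg4 were Itgb3bp and Samd10 (0.99 and 0.98), most like Slpi Gm21188 and Tnfaip8l2 (0.99 for both), most like Pglyrp1 Snx10 and Stom (0.96 and 0.95), and most like Lypd8 Plcl2 and Pllp (0.98 for both). For Retnlb they were Tmem64 and Xrcc4 (0.95 and 0.93), and for Lyz1 Sprr2a3 and Lmbr1l (0.92 for both). Slpi and Reg4 ran opposite, at -0.95, and Slpi and Pglyrp1 together, at 0.88. Lypd8, Retnlb and Lyz1 reached at most 0.26, 0.48 and 0.55 with any other member. These correlations are descriptions over 9 libraries that share the contrast between Blank and DSS and, for Ang4, Itln1 and Reg4, the values of Blank 2. Reg3b and Reg3g had 0 reads in Blank 2 and were highest in Model 1 and Model 3, the libraries with most acinar transcripts.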

How the data were processed

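Poly-A RNA of mouse colon was sequenced in 9 libraries, 3 in each of 3 groups taken from the sample titles. The tools named are HTSeq 0.9.1, HISAT2 2.1.0 and fastp 0.22.0, per the submitters' processing notes. Build, annotation and strand setting: not given in the sources used here. Each gene has a raw count of reads and an FPKM for every library, per the file headers. The series' design text calls the replicates biological. Replicates differed by more than sampling noise.

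Counts were tested with edgeR 4.0.16 in R 4.3.3 (quasi-likelihood F test, expression filter, TMM), in 1 fit of all 9 libraries without a block. Two-sided p-values were adjusted (Benjamini-Hochberg) over 14921 genes, and called means an adjusted p under 0.05. The SE is the fold change divided by the root of the F statistic. The test was checked on simulated counts. Members and lists were chosen with earlier results of these data known. Named genes were all members, their near copies, up to 4 genes of each list with the lowest p-values between Model and Blank and up to 2 between CDs and Model, and markers of other organs. Also named were the 2 genes most correlated with each member (log2 CPM, prior count 2), among tested genes with a gene symbol. One gene named by this rule is not reported here. Other genes were chosen after their values were seen. Alternatives used DESeq2 1.42.0, limma 3.58.1 on log2(FPKM + 1) and log2(FPKM + 0.1), upper-quartile scaling, no filter, 6 libraries, a replicate block, libraries left out, and acinar and other Reg genes left out. No member overlapped another gene of the table.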

Additional observations from a re-analysis of the deposited data

How the results depend on the processing

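The number of members called in Model versus Blank was 6. It was 3 without Model 1 and Model 3 and 3 to 6 with 1 library left out (3 without Model 3). In CDs versus Model it was 0, also with any 1 library left out, but 1 with DESeq2 and 2 without Model 1, Model 3 and CDs 1. In CDs versus Blank it was 4 (4 to 5 with 1 library left out), and 3 without Blank 2, Model 1 and Model 3, where Lyz1 and Pglyrp1 lost their calls (edgeR adjusted p = 0.0601 and 0.0791) and Retnlb gained one (0.0211). Over the whole table, called genes in Model versus Blank numbered 6574 (4405 to 7459 with 1 library left out, and 3209 without Blank 2, Model 1 and Model 3, a setting chosen after seeing the data). In CDs versus Model they numbered 0 (also with 1 library left out), 50 with DESeq2, 73 without Model 1 and Model 3 and 1241 without Model 1, Model 3 and CDs 1. In CDs versus Blank they numbered 5309 (3398 without Blank 2 to 5540, and 2939 without Blank 2, Model 1 and Model 3). Signs turned only for members not called with all 9 libraries. In Model versus Blank the log2 fold change of Retnlb was 0.59 with the replicate block, 1.14 and 1.19 with limma, 2.01 without Blank 2, Model 1 and Model 3, and -0.93 to 2.23 (without Blank 2) with 1 library left out, and that of Lypd8 was -0.38 to 0.12. In CDs versus Model Reg4 was at -0.043 with the replicate block, -0.015 with DESeq2 and -0.36 to 0.32 with 1 library left out, and Lypd8 at -0.030 to 0.50. In CDs versus Blank, with 1 library left out, Ang4 was at -2.42 to 0.82, Itln1 at -1.31 to 0.77, Retnlb at -0.12 to 3.04 and Lypd8 at -0.076 to 0.37, and without Blank 2, Model 1 and Model 3 Ang4 was at 0.82 and Itln1 at 0.77. The cause was not tested. The replicate numbers were not shown to pair the samples (correlations of same-numbered deviations from -0.37 to 0.21), and with them as a block 5, 0 and 4 members were called in the 3 comparisons, Itln1 losing its call in Model versus Blank (edgeR adjusted p = 0.104). The single read of Itln1 in Model 2 lies under the limit of 3 reads.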
